A study of Mus musculus with 3 samples.

Results

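The levels of 10 genes of the BCL2 family were measured by RNA-seq in mouse T-helper 1 cells: the survival genes Bcl2, Bcl2l1 and Mcl1, the effectors Bax and Bak1, and the BH3-only genes Bcl2l11, Bbc3, Pmaip1, Bid and Bad. They were taken by symbol, and all 10 were found once among the 50600 gene identifiers of the tables. The data were 3 libraries of 1 group, primary T-helper 1 cells of strain C57BL/6NJ, labelled as biological replicates 1, 2 and 3 with separate biosample records and the same donor record. The labels give no treatment, leave sex and age open, and point to a protocol for the differentiation of CD4+ T cells. They call the assay total RNA-seq but point to a library protocol named for poly(A)+ RNA, and the file headers add a 16 hr tag. There was no other condition, so genes were compared with each other inside a library, with the spread over the 3 libraries as the error.

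The BCL2 family decides whether the outer membrane of the mitochondrion stays intact. BAX and BAK form pores in that membrane, the survival proteins BCL2, BCL-xL (from Bcl2l1) and MCL1 hold them back, and BH3-only proteins carry death signals by binding the survival proteins or by activating the effectors. In T cells, BCL2 is known from resting and memory cells, BCL-xL from activated cells, and BIM (from Bcl2l11) from the death of activated cells.

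The gene counts summed to 4764598, 2568928 and 2815439 in replicates 1, 2 and 3. All 11 T cell markers were detected, that is, had a level of at least 1 TPM (a count scaled by gene length and by the total of such values in the library) in every library. Of 8 T-helper 1 markers 3 were detected, close to the 39.8% of all protein-coding genes: Runx3, Stat4 and Il12rb2, the last of which shares 1519 exon bases with an opposite-strand gene. Tbx21 was not detected, and Ifng had 1, 0 and 0 counts in replicates 1, 2 and 3. Of 8 markers each, 0 were detected for B cells, 0 for neutrophils and mast cells, 1 for CD8 and NK cells and 2 for macrophages, monocytes and dendritic cells. Their summed TPM ranged from 0.483 to 8.58, 0 to 2.07, 7.93 to 29.2 and 113 to 140 over the libraries, the last of these almost wholly from Csf1r, which shares 871 exon bases with an opposite-strand gene. Lyz2 and Cd8a had 0 counts in every library, while Cd8b1, the detected CD8 marker, had 97, 15 and 36. The libraries also differed in sex-linked genes despite the common donor record. Xist, which shares 2024 exon bases with opposite-strand exons, had 807, 1110 and 4 counts. The summed counts of 4 Y-linked genes (Uty, Kdm5d, Eif2s3y and Ddx3y) were 395, 0 and 215. The part of these differences in the results below was not tested. In bulk RNA, fewer cells of a type and less RNA per cell cannot be told apart.

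Of the 10 genes 9 were detected, Pmaip1 being the exception, against 39.8% of protein-coding genes. Mcl1 was the highest of the 10 in mean TPM, followed by Bcl2l1, Bax and Bid, which lay close together, then Bak1, Bad, Bcl2, Bbc3, Bcl2l11 and Pmaip1. In that order a gene was taken to differ from the next where the difference of log2(TPM + 1) had 1 sign in all 3 libraries and its mean exceeded its SD. By this measure Mcl1 differed from Bcl2l1, Bid from Bak1, Bak1 from Bad, Bad from Bcl2, and Bcl2l11 from Pmaip1. The differences between Bcl2l1 and Bax (0.01 ± 0.20; SD, n = 3), Bax and Bid (0.11 ± 0.43), Bcl2 and Bbc3 (0.74 ± 1.197) and Bbc3 and Bcl2l11 (-0.01 ± 1.24) did not exceed their spread.

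**Figure D1:**
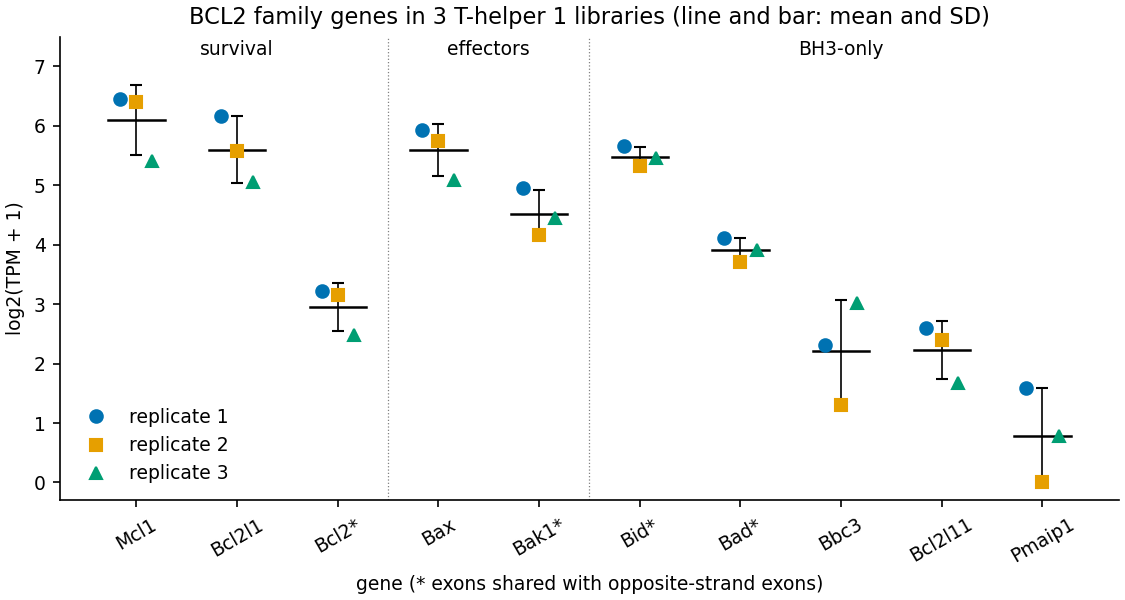
Level of each gene, as log2(TPM + 1), in replicate 1 (circles), 2 (squares) and 3 (triangles), grouped by role; lines are means, bars are SD over 3 libraries, and a star marks genes whose exons share bases with an opposite-strand exon. Mcl1, Bcl2l1, Bax and Bid lie at the top, and Pmaip1, at 0 in replicate 2, at the bottom.

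Exons of 4 of the 10 genes, Bcl2, Bak1, Bid and Bad, share bases with exons of a gene on the other strand, against 22.1% of protein-coding genes. The same 4 are the ones with exons inside the body of an opposite-strand gene (27.1% of protein-coding genes). The other 6 are called clear below. The headers state a strand-specific count with strand setting 1. Whether reads were assigned to the correct strand cannot be settled from gene counts alone. If they were not, counts of clear genes would be a remainder and counts of overlapped genes could belong to the partner. This limit holds for every level, rank, share and detection call given here, including those of the marker genes above.

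At Bcl2 and Bak1 the partner held more counts than the family gene. D630008O14Rik, an antisense gene, shares 558 bases with the last exon of Bcl2 and had 478, 295 and 520 counts in replicates 1, 2 and 3, where Bcl2 had 172, 92 and 67. Per kilobase of exon that is 12.4, 14.3 and 34.6 times the count of Bcl2. The antisense gene was thus above Bcl2 in every library, and furthest above it in replicate 3.

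Bak1 lies with all 2407 of its exonic bases inside the body of Ggnbp1 and shares 357 of them with its exons. Ggnbp1 had 1268, 603 and 1010 counts against 162, 52 and 80 for Bak1, or 2.71, 4.02 and 4.38 times as many per kilobase. Ggnbp1 exceeded Bak1 in all 3 libraries.

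At Bid and Bad the partner did not dominate. Bid and Bcl2l13, a distant BCL2 relative, lie tail to tail and share 628 bases at their 3′ ends. Bcl2l13 had 200, 93 and 87 counts over a longer transcript, 0.198, 0.206 and 0.139 times the count of Bid per kilobase. Bad and the receptor gene Gpr137 lie head to head and share 517 exonic bases at their 5′ ends, 25.8% of Bad. Gpr137 had 101, 45 and 66 counts, 0.990, 1.05 and 1.06 times Bad per kilobase, so the 2 strands of this pair were level in each library.

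**Figure D2:**
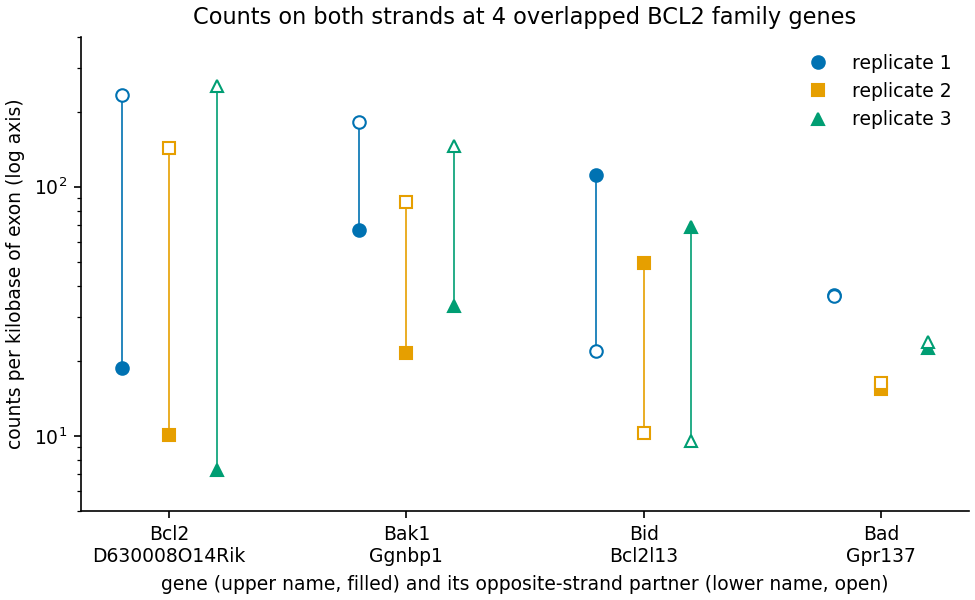
Counts per kilobase of exon, on a log axis, for each overlapped gene (filled) and its opposite-strand partner (open), with 1 line per library. The partner lies above Bcl2 and Bak1, below Bid and level with Bad in all 3 libraries.

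Among the survival genes, Mcl1 and Bcl2l1 were high and Bcl2 low. Mcl1, on chromosome 3 from 95658788 to 95663176 (mm10), encodes a short-lived survival protein that T cells need at many stages. Its counts were 671, 366 and 226, or 87.1, 83.9 and 41.6 TPM in replicates 1, 2 and 3 (70.9 ± 25.4; SD, n = 3), rank 1168 of 21764 protein-coding genes by mean TPM. Replicates 1 and 2 were close to each other and replicate 3 was well below them.

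Bcl2l1, on chromosome 2 from 152780668 to 152831728, encodes BCL-xL. Its counts were 733, 275 and 235, or 70.9, 47.0 and 32.2 TPM (50.04 ± 19.5; SD, n = 3). Replicate 1 was the highest and replicate 3 the lowest, and Mcl1 exceeded Bcl2l1 in each library.

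Bcl2, on chromosome 1 from 106538178 to 106714274, had 8.33, 7.88 and 4.60 TPM (6.94 ± 2.03; SD, n = 3). Its level was below that of Bcl2l1 and Mcl1 in every library. The log2 ratio was 3.33 ± 0.13 for Mcl1 to Bcl2, 0.50 ± 0.29 for Mcl1 to Bcl2l1 and -2.82 ± 0.26 for Bcl2 to Bcl2l1 (SD, n = 3). From the summed counts, scaled by length, Mcl1 stood 10.2-fold above Bcl2 (exact 95% interval for counting error 9.05 to 11.6) and 1.36-fold above Bcl2l1 (1.26 to 1.48). The Bcl2 ratios set clear genes against an overlapped one.

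In all, 7 gene pairs were compared. Each ratio had 1 sign in 3 of 3 libraries, with an exact two-sided sign-flip permutation p = 0.25 (Benjamini-Hochberg adjusted p = 0.25), the smallest that 3 libraries allow. None can therefore pass a threshold of 0.05. Without scaling by length, the Mcl1 to Bcl2l1 ratio was 0.08, with p = 1.0 in the same exact test, and Bcl2l1 had more counts than Mcl1 in replicates 1 and 3.

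Of the effectors, Bax was above Bak1 in each library. Bax, on chromosome 7 from 45461697 to 45466898, had 214, 106 and 83 counts, or 60.2, 52.7 and 33.1 TPM (48.7 ± 14.0; SD, n = 3). It shares 192 bases with Gm45808, a gene of the same strand with 0 counts in every library. Bak1, on chromosome 17 from 27019810 to 27029009, had 29.9, 16.9 and 20.9 TPM (22.6 ± 6.62). The log2 ratio of Bax to Bak1 was 1.11 ± 0.49, and from summed counts Bax stood 2.09-fold above Bak1 (exact 95% counting interval 1.80 to 2.44).

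The Bax promoter window is printed because it held matches to 3 of the searched motifs, the E-box, the GC box and the p53 half-site. The windows of 300 bases around gene starts come from RefSeq (GRCm38.p6), where 15 windows matched 9 of the 10 genes, all but Pmaip1. Both strands were searched for the FOXO motif GTAAACA, the E-box CACGTG, the GC box GGGCGG, the TATA box TATAAA and the p53 half-site. Bax held the E-box at 2 places, which are in capitals, and was the only 1 of the matched genes with a p53 half-site. A window of Bbc3 also held the E-box, at 1 place. The E-box was found in 7.15% and the p53 half-site in 8.36% of all 32851 windows. The Bax window is chr7:45466849-45467148, minus strand.

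Bax: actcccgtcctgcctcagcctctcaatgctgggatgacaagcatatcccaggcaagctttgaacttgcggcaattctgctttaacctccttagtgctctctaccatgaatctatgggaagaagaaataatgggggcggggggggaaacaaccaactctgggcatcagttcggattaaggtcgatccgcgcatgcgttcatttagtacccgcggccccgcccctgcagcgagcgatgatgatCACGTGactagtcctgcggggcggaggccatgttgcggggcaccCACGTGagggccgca

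The GC box was present in 10 of the 15 windows (35.7% of all windows) and the TATA box in 0 (13.6%). A match describes the letters of the window and is no evidence that a factor binds there.

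The BH3-only genes fell into a higher and a lower group. Bid, which is cleaved by caspase-8 and links death receptors to the mitochondrion, lies on chromosome 6 from 120891930 to 120916853. It had 395, 176 and 244 counts, or 49.4, 38.9 and 43.2 TPM (43.8 ± 5.27; SD, n = 3). Bid was the BH3-only gene of highest level in each library, and in replicate 3 it exceeded Mcl1, Bcl2l1 and Bax.

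Bad, which binds BCL2 and BCL-xL and is held inactive by phosphorylation, lies on chromosome 19 from 6941861 to 6951898. Its counts were 74, 31 and 45, or 16.4, 12.1 and 14.1 TPM (14.2 ± 2.12; SD, n = 3). Bcl2l1 exceeded it in each library, by a log2 ratio of 1.76 ± 0.49. Both Bid and Bad overlap an opposite-strand gene as described above.

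The 3 clear BH3-only genes were low. Bcl2l11, the gene of BIM, on chromosome 2 from 128126038 to 128162547, had 92, 44 and 28 counts, or 5.08, 4.30 and 2.19 TPM (3.86 ± 1.49; SD, n = 3). Bcl2, whose protein BIM binds, was above it in each library by a log2 ratio of 0.89 ± 0.18 and by 1.77-fold in summed counts (exact 95% counting interval 1.46 to 2.15). That ratio again sets an overlapped gene against a clear one.

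Bbc3, the gene of PUMA and a textbook p53 target, on chromosome 7 from 16308393 to 16318205, had 19, 4 and 24 counts, or 3.97, 1.48 and 7.11 TPM (4.18 ± 2.82; SD, n = 3). Replicate 3 was the highest for Bbc3, whereas it was the lowest for Bcl2l11, Mcl1, Bcl2l1, Bcl2 and Bax. In replicate 2 its 4 counts are close to the 2.71 counts that 1 TPM stands for at this gene.

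Pmaip1, the gene of NOXA, which binds MCL1, had 12, 0 and 3 counts, or 2.01, 0 and 0.713 TPM. The 0 in replicate 2 is compatible, as counting error goes, with 3 counts or 0.889 TPM. The means of both low genes shifted with the library left out. That of Pmaip1 ranged from 0.357 TPM (without replicate 1) to 1.36 TPM (without replicate 2). That of Bbc3 ranged from 2.72 TPM (without replicate 3) to 5.54 TPM (without replicate 2). Mcl1 exceeded Pmaip1 by a log2 ratio of 5.44 and 5.87 in replicates 1 and 3 and of at least 6.56 in replicate 2. Zeros were common among low genes of that library: of 727 protein-coding genes with 10 to 19 counts in all, 55.3% had 0 counts in replicate 2, against 4.13% in replicate 1 and 9.63% in replicate 3. This count of zeros was made after the data were seen.

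Bcl2l11 and Bbc3, both described in the literature as FOXO targets, were the members with the FOXO motif GTAAACA in a promoter window, which 3.65% of all windows hold. The motif, on either strand, is in capitals below, and both windows are on the plus strand (GRCm38.p6): chr2:128125788-128126087 for Bcl2l11 and chr7:16310011-16310310 for Bbc3, the latter at a start inside the annotated gene. Of the FOXO genes on the list, Foxo3 had 8.34 TPM ± 1.94 and Foxo1, which has an opposite gene, 6.53 ± 3.25 (SD, n = 3).

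Bcl2l11: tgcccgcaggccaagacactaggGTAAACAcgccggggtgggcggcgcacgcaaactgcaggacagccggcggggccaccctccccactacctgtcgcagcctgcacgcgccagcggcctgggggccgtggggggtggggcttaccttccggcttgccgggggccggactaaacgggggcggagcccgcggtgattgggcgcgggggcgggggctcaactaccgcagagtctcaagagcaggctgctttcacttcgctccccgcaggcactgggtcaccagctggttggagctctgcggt

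Bbc3: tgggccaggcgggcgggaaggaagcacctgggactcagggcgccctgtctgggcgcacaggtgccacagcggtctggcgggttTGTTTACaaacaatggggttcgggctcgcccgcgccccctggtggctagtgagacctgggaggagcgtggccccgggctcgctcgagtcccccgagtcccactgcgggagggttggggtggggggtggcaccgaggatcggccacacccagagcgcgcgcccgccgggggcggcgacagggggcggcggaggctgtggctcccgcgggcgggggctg

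Those 2 genes did not vary alike over the libraries, as the values above show, and binding at these windows was not measured.

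By role, the survival genes made up 49.9%, 52.3% and 39.3% of the summed TPM of the 10 genes in replicates 1, 2 and 3, the effectors 27.0%, 26.3% and 27.0%, and the BH3-only genes 23.0%, 21.4% and 33.7%. The share of the effectors was nearly equal in the 3 libraries, while in replicate 3 the share of survival genes was lower and that of BH3-only genes higher. Bid alone held 14.8%, 14.7% and 21.6%. The log2 ratio of summed survival to summed effector TPM was 0.81 ± 0.24 and that of survival to BH3-only TPM 0.88 ± 0.57 (SD, n = 3), both above 0 in 3 of 3 libraries.

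These ratios depend on which genes enter and how they are averaged. With clear genes only (Mcl1 and Bcl2l1 against Bax, or against Bcl2l11, Bbc3 and Pmaip1) they were 1.29 ± 0.12 and 3.74 ± 0.82, since Bid and Bad then leave the BH3-only sum. As a difference of mean log2(TPM + 1), in which the low Bcl2 counts as much as Mcl1, survival minus effectors turned to -0.17.

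**Figure D3:**
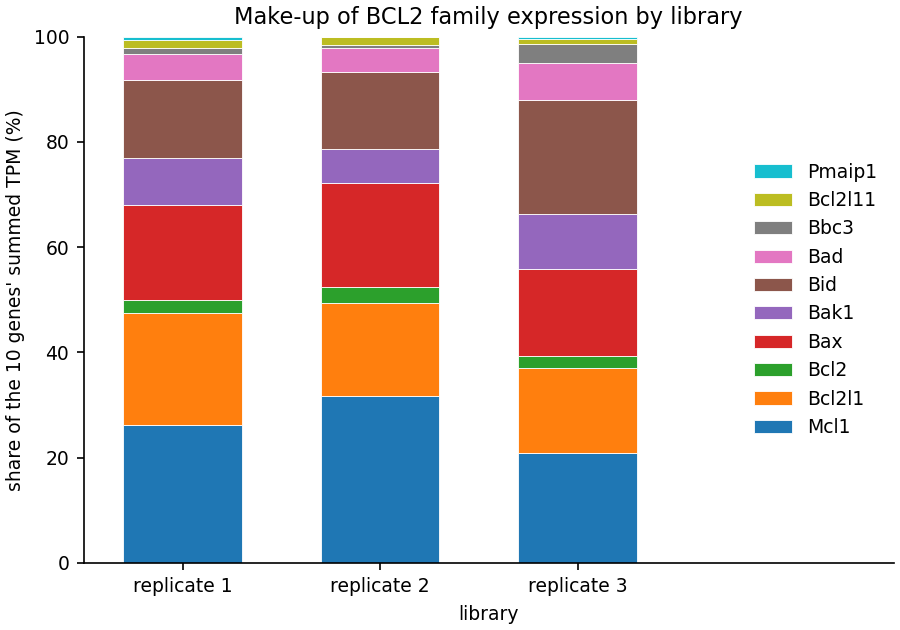
Share of each gene in the summed TPM of the 10 genes, in percent, 1 bar per library. Mcl1, Bcl2l1, Bax and Bid fill most of each bar, and the Bid segment is largest in replicate 3, at 21.6%.

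Part of the spread between libraries was common to most genes. For 9932 protein-coding genes averaging 1 TPM or more, each library's log2(TPM + 1) was taken minus the mean of that gene, and the medians were 0.32, 0.11 and -0.41 in replicates 1, 2 and 3. Relative to these medians, Bcl2, Bcl2l1, Mcl1, Bcl2l11 and Bax lay in replicate 3 between -0.27 and -0.06. The overlapped genes Bak1, Bid and Bad lay there at 0.34, 0.40 and 0.41, and the clear genes Pmaip1 and Bbc3 at 0.40 and 1.21, all above the median gene. Bcl2, also overlapped, did not share this position.

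When TPM was recomputed over clear genes alone, the median deviations shrank to 0.11, -0.06 and -0.02, and the spread of 4 clear members narrowed. In these recomputed values 5 of the 6 clear members were detected, against 37.4% of clear protein-coding genes. Bax had 194, 186 and 185 recomputed TPM (188 ± 4.82; SD, n = 3), Mcl1 280, 296 and 232 (269 ± 33.6), Bcl2l1 228, 166 and 180 (191 ± 32.5) and Bcl2l11 16.3, 15.2 and 12.2 (14.6 ± 2.12). The recomputation multiplies every clear gene of a library by the same factor, so ratios between clear genes could not change. The place of Mcl1 above Bcl2l1, and of Bax level with Bcl2l1, is thus the earlier result and no new support. Bbc3, at 12.8, 5.21 and 39.6 recomputed TPM, and Pmaip1, at 6.46, 0 and 3.97, had a wide spread. The SD of log2(recomputed TPM + 1) was 0.04 for Bax, 0.18 for Mcl1, 0.20 for Bcl2l11 and 0.24 for Bcl2l1, against 1.36 for Bbc3 and 1.53 for Pmaip1. For Bbc3 and Pmaip1 the spread thus widened, from 0.86 and 0.80 in TPM over all genes. The median was 0.22 over the 6 clear members and 0.40 over 7160 clear protein-coding genes with a mean of at least 1. With all 10 members in TPM over all genes, the medians were 0.47 and 0.52.

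**Figure D4:**
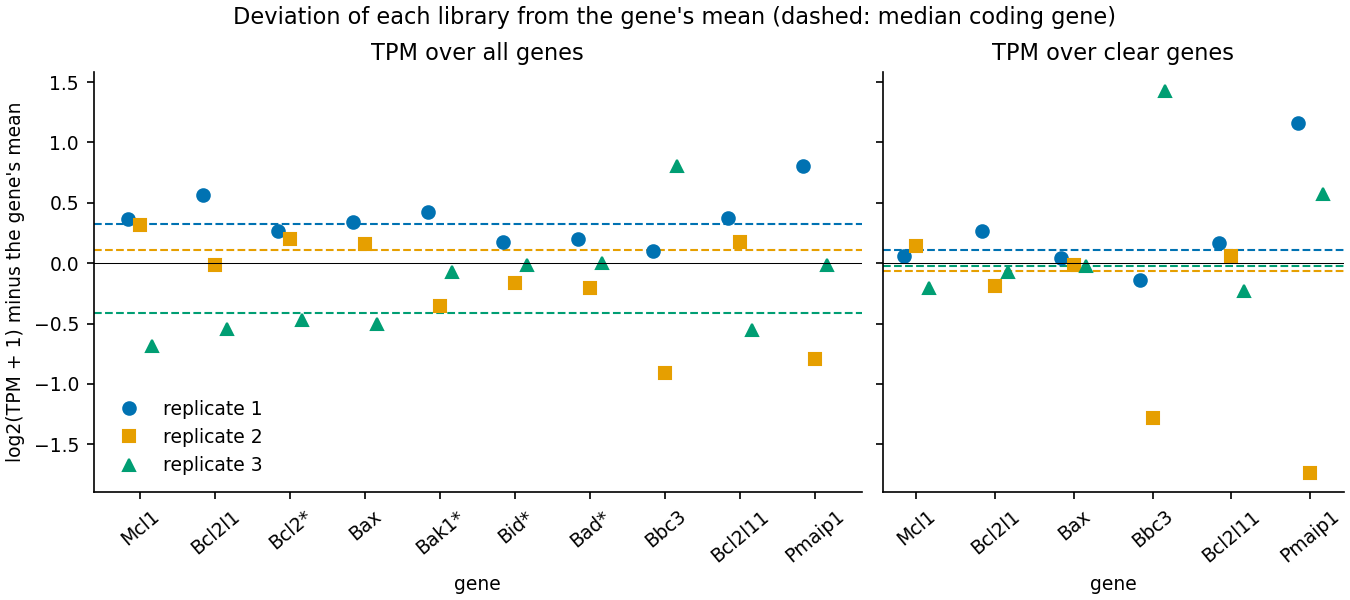
Deviation of each library from the gene's mean, in log2(TPM + 1), over all genes (left, 10 genes) and over clear genes (right, 6 genes); dashed lines are the median protein-coding gene in the same library. On the right Mcl1, Bcl2l1, Bax and Bcl2l11 gather near 0, while Bbc3 and Pmaip1 do not.

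Whether this spread exceeded the sampling of reads was tested with a chi-square test of each gene's counts over the 3 libraries, against library sizes scaled by the trimmed mean of M-values (TMM), with Benjamini-Hochberg adjustment over 10207 protein-coding genes with at least 15 counts. It compares these libraries, not conditions. Of the 10 members 5 passed, while 67.3% of all genes tested did, so passing was no mark of the family. Those 5 were Bcl2l1 (chi-square adjusted p = 1.51e-07), Bid (1.83e-05), Bbc3 (4.24e-05), Mcl1 (0.00017) and Bak1 (0.00565). Bax (0.502), Bcl2 (0.509), Bcl2l11 (0.209), Bad (0.109) and Pmaip1 (0.0548) did not pass, which for the last, with 15 counts, says little.

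The libraries behind these calls differed from gene to gene. Without replicate 1 the adjusted p of Bcl2l1 in the chi-square test was 0.843, and without replicate 2 that of Bak1 was 0.663. Without replicate 3 those of Mcl1, Bid and Bbc3 were 0.576, 0.147 and 0.151, and 2 of the 9 members tested passed, against 47.6% of all genes tested without that library. With library sizes scaled over clear genes, Mcl1 no longer passed (chi-square adjusted p = 0.0686) and Bad did (0.0177).

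The other genes of the family ranged from 0 counts to a level above that of Mcl1. Their detected counts, 2 of 5 survival genes, 0 of 1 effector-like gene, 0 of 3 BH3-only genes and 4 of 6 distant relatives, stand against 39.8% of protein-coding genes. Of the 5 other survival genes, Bcl2a1b (23.4 TPM ± 15.6; SD, n = 3) and Bcl2a1d (12.7 ± 13.5) were detected, while Bcl2l2 had 17, 4 and 10 counts and Bcl2a1a and Bcl2l10 had 0. The Bcl2a1 genes are near-identical copies of A1, so their counts are uncertain one by one. Both detected copies were highest in replicate 1, at 39.6 and 28.3 TPM. Bcl2a1d has 863 exonic bases inside the body of an opposite-strand gene. Bok, an effector-like gene, had 1, 0 and 3 counts. Of the BH3-only genes Bik, Hrk and Bmf none was detected: Bik had 3, 7 and 1 counts, Bmf 2, 0 and 0, and Hrk 0. Among 6 distant relatives 4 were detected, with Bcl2l12 the highest (106 TPM ± 35.5), which shares 660 bases with opposite-strand exons, then Bnip3l, a mitophagy receptor (9.35 ± 8.72), and Bcl2l13 (7.93 ± 1.87). Bcl2l14 had 0 counts and Bcl2l15 had 1, 0 and 0.

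Downstream of the mitochondrion, 5 of 8 apoptosome and caspase genes were detected, led by Cycs, the gene of cytochrome c (72.7 TPM ± 31.6; SD, n = 3), and Casp8, the caspase that cleaves BID (38.2 ± 11.8). Apaf1, the scaffold of the apoptosome, had 87, 79 and 18 counts, and its caspase Casp9 had 21, 11 and 8. Casp9 shares 94 bases with opposite-strand exons. All 6 caspase inhibitors and their antagonists were detected. Htra2, a mitochondrial protease, was the highest (247 ± 94.1) and shares 1288 bases with opposite-strand exons. The inhibitors Birc3 (13.5 ± 5.68) and Xiap (11.2 ± 4.54) are clear.

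In the death receptor arm 7 of 9 genes were detected, led by Cflar, the gene of the caspase-8 regulator FLIP (11.8 TPM ± 6.30; SD, n = 3), Ripk1 (10.2 ± 3.13) and Tradd (9.66 ± 2.28). All were below Bid in mean TPM. Ripk1 shares 241 bases with opposite-strand exons. Of 7 mitochondrial channel and carrier genes all were detected, led by the ADP/ATP carriers Slc25a5 (336 ± 140) and Slc25a4 (76.0 ± 33.7) and the channel Vdac1 (110 ± 37.9).

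Of 18 regulators of the family's transcription and stability 16 were detected. Atf4 (248 TPM ± 87.0; SD, n = 3) and Ddit3 (177 ± 32.7), factors of the stress response, and the NF-kB gene Nfkb1 (74.0 ± 22.7) were the highest. Ddit3 shares 81 bases with opposite-strand exons. Trp53, the p53 gene, had 40.5 ± 12.5, and Trp73 had 0 counts. Of 7 receptor genes known to feed survival signals to T cells, 6 were detected, led by Il2ra (83.6 ± 23.7), Cd28 (45.0 ± 17.3) and Il2rb (41.1 ± 13.8). Il7r, the receptor that maintains BCL2 in resting T cells, had 8, 0 and 1 counts. A link between the levels of these receptors and of the survival genes was not tested, and 1 group of samples does not allow such a test.

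In all, 53 of the 70 other pathway genes were detected, against the 39.8% of protein-coding genes given above, and 7 were under 1 TPM in every library. Their median of mean TPM was 11.1, that of the 10 members 18.4 and that of all protein-coding genes 0.378. Of the 59 with at least 15 counts, 40 passed the chi-square test, close to the 67.3% of all genes.

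**Figure D5:**
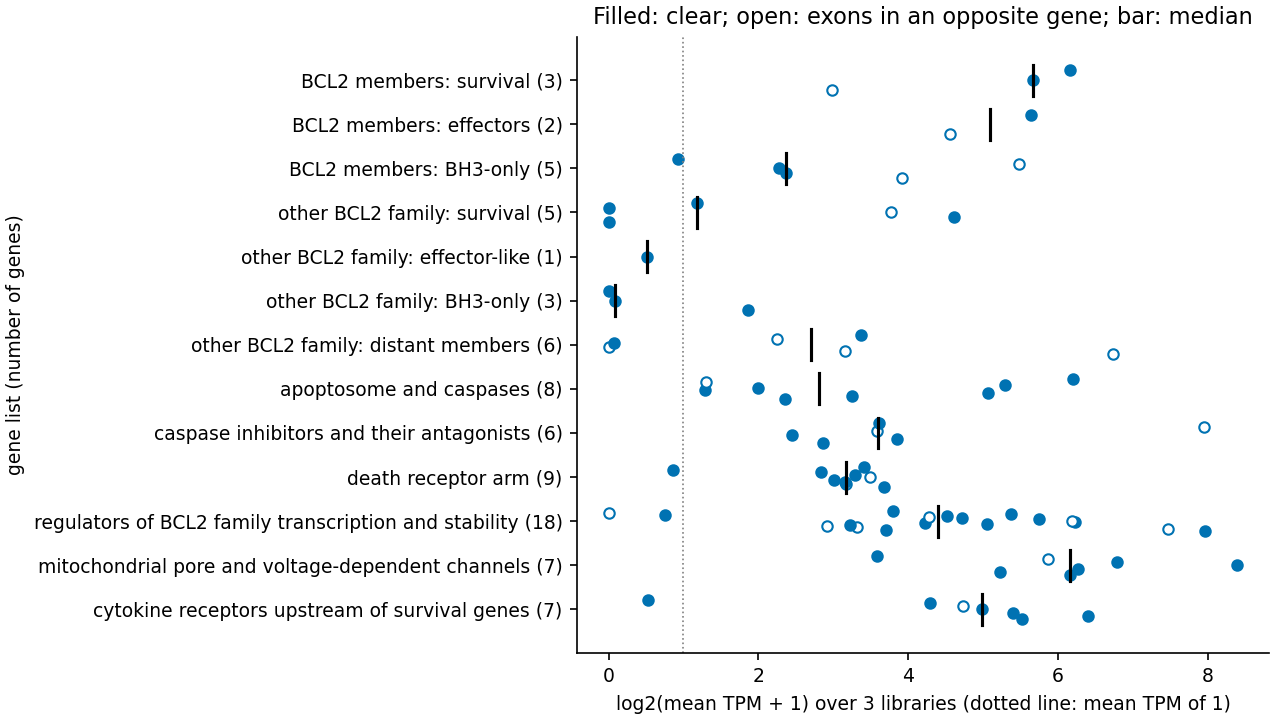
Mean level of each gene, as log2(mean TPM + 1) over 3 libraries, by list; filled points are clear genes, open points have exons inside an opposite-strand gene, bars are list medians and the dotted line is a mean of 1 TPM. Survival genes and effectors lie among the higher lists, and of the 3 other BH3-only genes Hrk and Bmf lie at or near 0 and Bik above the dotted line.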

How the data were processed

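RNA of 3 T-helper 1 libraries was analysed. The authors deposited raw counts for each gene. Per the file headers, the counting tool was featureCounts (v1.4.6-p4), run on fragments whose ends both mapped, with strand setting 1 and the GENCODE vM13 exons of mm10. The aligner's version is not given in the sources used here. Exonic gene lengths, in bases, were deposited beside the counts. TPM was computed here from both. Of 50600 identifiers, 50376 were named from the supplied name table, and biotypes came from GENCODE vM21. Strand overlaps were computed from the deposited exon coordinates; a gene was clear where none of its exons lay inside an opposite gene's body (15865 of 21764 coding genes).

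The members and the 19 lists were chosen with earlier results of these data known. The text names the members, from each list the 3 highest genes and up to 3 under 1 TPM in every library, most of them by count only, without some that are not reported here, and opposite-strand partners; Fasl, Casp9, Apaf1, Il7r, Trp53, Foxo1, Foxo3, Xist and the Y-linked genes were chosen later. Intervals and floors cover counting error only. The chi-square p-values ask whether the spread between these samples exceeds the sampling of reads. The sign-flip p-values ask whether a ratio keeps its sign over them. The samples share 1 donor record but differ in sex-linked genes, and which part of their spread is technical was not tested. The chi-square test was tested on simulated data. Size factors came from edgeR 4.0.16 (TMM) and DESeq2 1.42.0. Python 3.11.15, SciPy 1.17.1 and R 4.3.3 were used. Alternatives were other scalings, thresholds and pseudocounts, clear genes, and each replicate left out.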

Additional observations from a re-analysis of the deposited data

How the results depend on the processing

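Depth limits the low members: Pmaip1 and Bbc3 rest on 15 and 47 counts in all. The number of members detected was 9 with each replicate left out and at 1 CPM on TMM-scaled libraries, and 6 at 5 TPM. It was 5 of the 6 clear members in recomputed TPM, where fewer genes enter. Of these settings only the last has a share over protein-coding genes beside it, 37.4% of clear ones. The other counts can therefore not be read as high or low. The log2 ratio of survival genes to effectors was 1.99 without length scaling, 1.29 with clear members and -0.17 as a difference of mean logs. That of survival to BH3-only genes was 3.74 with clear members and 1.96 as a difference of mean logs. The number of members varying beyond counting noise was 8 of 10 with library sizes from total counts, where 79.7% of all genes passed, and 2 to 4 with a replicate left out, where 40.5% to 48.5% of all genes passed; the count of 2 is that without replicate 3. The members' median SD was 0.30 in TMM-scaled counts per kilobase and 0.22 over clear genes (a setting added after the data were seen). With a replicate left out it was 0.26 to 0.55, lowest without replicate 3. The median over coding genes also fell, to 0.33 in TMM-scaled counts, 0.40 over clear genes and 0.29 without replicate 3. Over clear genes it fell less, from 0.52, than that of the members, from 0.47. Without replicate 2 the members had 0.55 and coding genes 0.54. When coding genes of any level entered, their median was 0.21, against 0.47 for the members. Where no reason is given, the cause was not tested. Without length scaling the mean of each of the 7 pair ratios kept its sign, but Mcl1 to Bcl2l1 turned negative in replicates 1 and 3. A pseudocount or a left-out replicate could not change the sign of a mean, because each ratio had the same sign in every library. Opposite-strand exon overlap was found for 4 members at 1 or at 50 shared bases. No paired analysis was possible because there is 1 group of samples.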

Other observations

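Fasl, the ligand of the death receptor Fas, was chosen after its values were seen: its counts were 64, 0 and 20 in the order of the replicates. Of 1150 protein-coding genes with 40 to 79 counts in all, 7.74% had 0 counts in replicate 2, against 0% in replicate 1 and 0.174% in replicate 3. In the next band, of 1653 genes from 80 counts up, to which Fasl belongs, 17 had 0 counts in replicate 2 and 0 in each of the other libraries. The opposite also occurred: Bnip3l had 58, 94 and 14 counts and was highest in replicate 2 (19.1 TPM against 6.67 and 2.28). What sets replicate 2 apart at low counts was not tested.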
